A study of Mus musculus with 4 samples.

Results

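The cytosolic ribosomal protein genes of the mouse were followed in heart ventricles of mice given deoxycorticosterone acetate (DOCA) with high or low salt. Members were taken by name alone: every cDNA clone with 1 gene symbol of the form Rpl or Rps followed by a number, or Rplp0, Rplp1 or Rplp2, with the S6 kinase genes (Rps6k) left out. This gave 179 of the 12480 clones with 1 symbol and values, and 67 of 8106 genes after the clones of a symbol were averaged. The large subunit had 44 genes from 124 clones and the small subunit had 23 genes from 55 clones. Of the 67 genes, 23 had 1 clone and 44 had 2 or more. The symbol rule also takes in Rpl7l1, Rpl39l and Rps27l, which are named for their likeness to ribosomal proteins.

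A ribosome consists of a small subunit, which holds the mRNA and reads its codons, and a large subunit, which joins the amino acids. Subunits are built from ribosomal RNA and a fixed set of proteins, whose genes are among the most highly expressed in growing cells. The heart muscle of an enlarging heart makes more protein, and the output of ribosomes is one of the means known to set that rate. Many ribosomal protein mRNAs begin with a C followed by a run of C and T, the 5′ terminal oligopyrimidine tract, through which the TOR kinase pathway controls their translation. Arrays of mRNA abundance do not measure that control.

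All 6 mice were male and wild-type, of a backcross (N5–6) of 129Ola and C57BL/6J labelled 1-renin, aged 7 to 8 weeks at the start and 12 to 13 weeks at sampling. All 6 had 1 kidney removed, received DOCA for 5 weeks and ate food with 0.5 mg Na per g, so the controls carried the operation and the hormone too. Drinking water set the groups apart: it held 1% NaCl for the 3 high-salt mice and was plain tap water for the 3 low-salt mice. The tissue was the right and left ventricles with the septum, a mixture of cell types, in which fewer cells of a type and less RNA per cell cannot be told apart. Each of 4 printed cDNA arrays set 1 high-salt heart against 1 low-salt heart. Array 1 held pair 1 and array 3 held pair 3, while arrays 2 and 4 held the same 2 mice (pair 2) with the dyes exchanged. High-salt RNA carried Cy3 on arrays 1 and 2, and Cy5 on arrays 3 and 4. The values of arrays 2 and 4 were averaged, so n was 3 pairs.

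The deposited values are log ratios, taken here to base 2. They were read as high over low salt, following the wording of the array titles. That direction is likely but not settled: arrays of opposite dye correlated below 0 over the 67 genes, with Pearson's r from -0.53 (arrays 1 and 3) to -0.15 (arrays 2 and 4), against 0.54 and 0.39 for arrays of the same dye. Over all 8106 genes the opposite-dye values ran from -0.33 to -0.07 and the same-dye values were 0.57 and 0.47. These are correlations across genes, which are not independent. Values are therefore also given with the sign of arrays 1 and 2 reversed, called the turned reading, which applies if the authors had not already turned the swapped arrays. No intensities were used, so the levels of these genes, and of the markers that define heart muscle, could not be checked. Of 13 cardiomyocyte markers 3 had a ratio (Ttn, Ryr2 and Atp2a2).

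The start sites of these genes hold sequence features that the naming rule did not use. RefSeq start-site windows (assembly GRCm38.p6, from 250 bases before to 50 bases from the start) were found for 56 of the 67 genes, 67 windows in all. A run of at least 8 C or T across the start base lay in 17 of the 67 windows (25.4%), against 3.86% of the 32851 windows of all genes. The letters CTTTC lay within 20 bases of the start, on the gene's strand, in 26.9% of member windows and 5.49% of all windows. CTCTTT, which can overlap CTTTC, lay there in 11.9% and 1.54%. CCGGAAGT, searched on both strands over the whole window, lay in 16.4% against 3.89%. Its shorter form GGAAGT, which is contained in it, lay in 47.8% against 23.8%. The TATA box letters TATAAA, searched on the gene's strand between 40 and 15 bases before the start, lay in 0 of 67 member windows and 1.99% of all. A match is a description of the letters, and a missing match says only that these letters are not in that window. The start base was the boundary of the annotated gene in 19827 of the 32851 windows checked. A run of C or T that lies beside the start base without covering it was not counted. The shares therefore depend on where the start is annotated.

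The following 30-base windows, 5′ to 3′ with 15 bases before the start and 15 from it, are examples with a long and with a short run at the annotated start. They were picked among the members named below, 5 for a long run and 2 for their large orientation coefficients. Capitals mark the unbroken run of C or T that covers the start base. The first 5 have the long run, and Rps7 and Rpl7l1 have a short one. Other named members, Rpl10 and Rpl41 among them, have no C or T at the start base, and neither does the second window of Rps24.
Rps6 (chr4:86857353-86857382, minus strand): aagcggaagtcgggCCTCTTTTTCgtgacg
Rpl15 (chr14:18270972-18271001, minus strand): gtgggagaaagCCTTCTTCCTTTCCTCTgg
Rps24 (chr14:24490663-24490692, plus strand): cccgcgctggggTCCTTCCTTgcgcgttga
Rps10 (chr17:27635230-27635259, minus strand): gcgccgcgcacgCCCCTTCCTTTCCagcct
Rplp2 (chr7:141447636-141447665, plus strand): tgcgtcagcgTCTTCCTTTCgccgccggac
Rps7 (chr12:28635939-28635968, minus strand): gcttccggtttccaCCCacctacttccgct
Rpl7l1 (chr17:46782642-46782671, minus strand): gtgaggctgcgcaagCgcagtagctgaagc
Rpl3 and Rpl8 have no window in the table used.

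Between high and low salt the cytosolic ribosomal protein genes lay close to 0 as a group. Their mean log2 ratio, averaged over the genes, was -0.0052 ± 0.11 (SD, n = 3 pairs), and the median gene was at -0.013, against -0.00026 for all 8106 genes. The mean over pairs lay above 0 in 29 genes (43.3%, background 49.8% of all genes) and below 0 in 38 (56.7%, background 50.1%). In limma's test against 0 with Benjamini-Hochberg adjustment, 0 of the 67 passed 0.05, and 0 of 8106 genes did (0%). At an unadjusted p under 0.05, 1 member was higher (background 2.81%) and 0 were lower (background 2.63%). In the turned reading 35 members lay above 0 and 32 below, and again 0 members and 0% of all genes passed. At an unadjusted p under 0.05 the turned reading gave 7 members higher (background 6.97%) and 5 lower (background 13.8%).

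**Figure D1:**
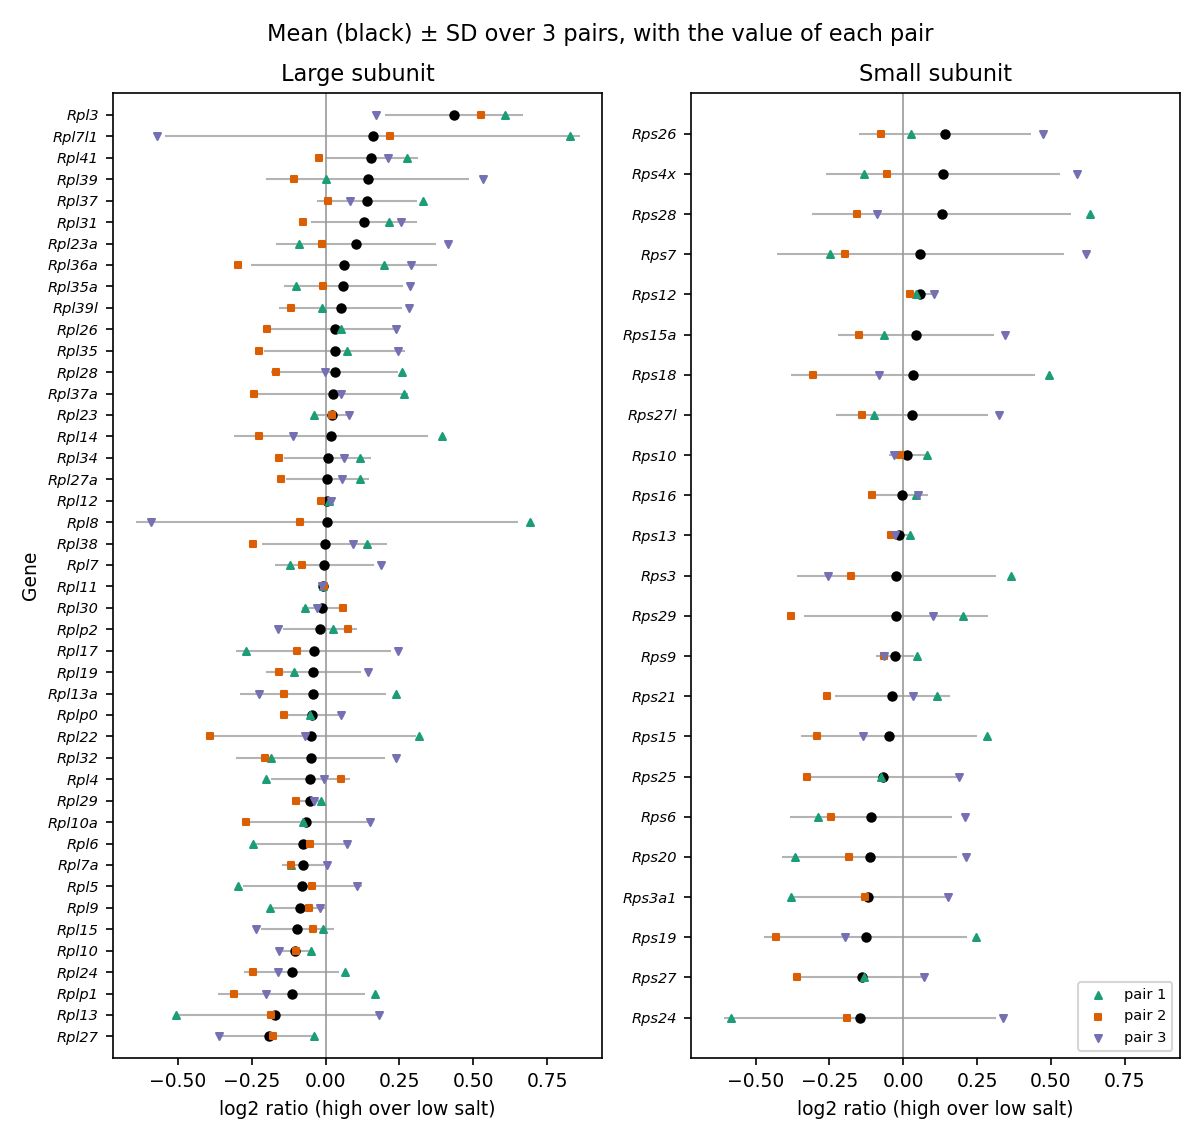
Mean log2 ratio, high over low salt, of each of the 67 genes (black points) with the SD over 3 pairs (grey bars) and the value of each pair (coloured marks), large subunit left and small subunit right. Rpl3 is at the top of the large subunit at 0.44 and the other 66 means lie between -0.19 and 0.16.

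Rpl3 stood at the top. Its protein, uL3, is a large subunit protein that reaches into the peptidyl transferase centre, where the peptide bond is made. The log2 ratio of Rpl3 was 0.61 on array 1, 0.45 on array 2, 0.17 on array 3 and 0.60 on array 4. All 4 arrays were thus above 0, with pair 3 the lowest. The mean over pairs was 0.44 ± 0.23 (SD, n = 3), with an SE of 0.11. limma gave an unadjusted p of 0.0207 and an adjusted p of 0.863 over all genes, so the difference did not pass. Rpl3 was the only member above 0 on all 4 arrays, a pattern that 7.01% of all genes had. With dye orientation as a covariate limma's adjusted p was 0.164 (unadjusted 0.00233). That fit had 1 residual degree of freedom, and 3 members had an unadjusted p under 0.05 in it (4.48%, background 14.7%). In the turned reading the mean of Rpl3 was -0.12 ± 0.43 (adjusted p 0.755).

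Rpl3 was printed as 10 clones, the most of any gene in the family. The 10 clone means ran from 0.19 to 0.57, and 9 of the 10 clones were above 0 on all 4 arrays. The remaining clone was at 0.21, -0.30, 0.61 and 0.70 on arrays 1 to 4. That clone and the clone with the lowest mean had their higher values with Cy5 on high salt, in the opposite order to most of the others. On array 3 the clones lay between 0.025 and 0.61. Clones of 1 gene share the RNA and the array and are not replicates. Rpl3l, the muscle form of this protein, was not among the measured symbols, and a cDNA clone can also bind the RNA of a near-identical copy. The fibroblast marker list, of which 8 of 10 genes were measured, had pair means of 0.52, 0.52 and 0.45 on the log2 scale. Of the 8 genes, 7, 6 and 7 lay above 0. In the turned reading the pair means were -0.52, 0.07 and 0.45, with 1, 5 and 7 genes above 0. The part of fibroblasts in the Rpl3 ratio was not tested.

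**Figure D2:**
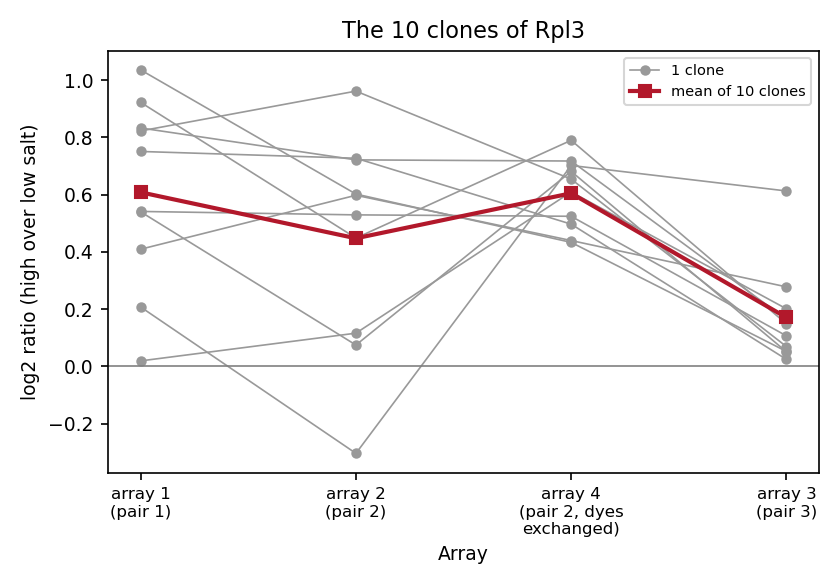
Log2 ratio (high over low salt) of the 10 Rpl3 clones on each array, 1 grey line per clone, with their mean in red. Of the 10 clones 9 stay above 0 on all 4 arrays, and 1 falls to -0.30 on array 2.

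Below Rpl3 came members of both subunits, none of which passed limma's adjusted threshold. Rpl7l1, related to Rpl7 and known from assembly of the large subunit, had a mean of 0.16 ± 0.70. Rpl41, the shortest ribosomal protein, was at 0.28, 0.12, 0.21 and -0.16 on arrays 1 to 4, a mean of 0.16 ± 0.16. Rpl39 had 0.14 ± 0.34, Rpl37 0.14 ± 0.17 and Rpl31, which lies at the exit of the peptide tunnel, 0.13 ± 0.18. In the small subunit the highest were Rps26, a protein at the mRNA exit, with 0.14 ± 0.29, Rps4x, encoded on the X chromosome, with 0.13 ± 0.40, and Rps28 with 0.13 ± 0.44. Rps7 followed at 0.06 ± 0.49 and Rps12 at 0.06 ± 0.042. The 3 pairs of Rps4x, Rps28 and Rps7 lay on both sides of 0. The order depends on the direction: in the turned reading Rpl7l1 was at -0.57, Rps28 at -0.31, Rpl37 at -0.19 and Rpl41 at -0.07, while Rps7, at 0.41, was the highest of the 67.

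At the lower end, Rpl27 was the only member below 0 on all 4 arrays, a pattern of 7.75% of all genes. Its single clone read -0.039, -0.010, -0.36 and -0.34 on arrays 1 to 4. The arrays with Cy5 on high salt were low and those with Cy3 were near 0. The mean was -0.19 ± 0.16 with an adjusted p of 0.970 in limma. Rpl13, also from 1 clone, had -0.51, -0.14, 0.18 and -0.23, so 1 array was above 0, and a mean of -0.17 ± 0.34. Rplp1, of the acidic stalk, had -0.11 ± 0.25, Rpl24, near the interface of the subunits, -0.11 ± 0.16 and Rpl10, whose addition is a late step in maturing the large subunit, -0.10 ± 0.054. Rpl10 was below 0 in all 3 pairs, although array 2 alone was at 0.18. Turned, Rpl27 was at -0.16, Rplp1 at -0.13 and Rpl10 at -0.13, and Rpl13 moved above 0, to 0.21.

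In the small subunit the lowest means were those of Rps24, Rps27, Rps19, Rps3a1 and Rps20. Rps24 and Rps19 are genes whose loss of 1 copy causes Diamond-Blackfan anaemia in people. Other members share that trait, among them Rps26, the highest of the small subunit at 0.14, so it is not particular to the low end. Rps24 read -0.58, -0.39, 0.34 and 0.0055 on arrays 1 to 4, a mean of -0.15 ± 0.46 in which pair 3 was above 0. Rps19 read 0.25, -0.22, -0.20 and -0.65, a mean of -0.13 ± 0.34 in which only pair 1 was above 0. Rps27 had -0.14 ± 0.21, Rps3a1 -0.12 ± 0.27 and Rps20 -0.11 ± 0.30. Rps6, the substrate of the S6 kinases and the protein whose phosphorylation is used as a readout of TOR signalling, read -0.29, -0.66, 0.21 and 0.17. The 4 arrays split by dye, and the mean was -0.11 ± 0.27. With the arrays turned Rps19 stayed below 0 at -0.22, while Rps24 was at 0.37, Rps6 at 0.30, Rps3a1 at 0.27, Rps20 at 0.20 and Rps27 at 0.05.

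The other proteins of the acidic stalk, which recruits the elongation factors to the large subunit, were Rplp0 with -0.05 ± 0.097 and Rplp2 with -0.019 ± 0.12. In the related gene pairs the SDs overlapped too, and their differences were not tested. Rpl39 had 0.14 ± 0.34 and Rpl39l 0.05 ± 0.21, while Rps27 had -0.14 ± 0.21 and Rps27l 0.03 ± 0.26. Rpl7, with 9 clones, had -0.0036 ± 0.17 against 0.16 ± 0.70 for Rpl7l1. Rpl10l, Rpl22l1 and Rpl36al had no measured clone, so Rpl10, Rpl22 (-0.05 ± 0.35) and Rpl36a (0.06 ± 0.31) stand alone. Values of such copies are uncertain, because cDNA clones can bind the RNA of either.

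The large and small subunits had means close to each other. The mean log2 ratio over genes was 0.00058 ± 0.086 for the large subunit and -0.016 ± 0.16 for the small subunit (SD, n = 3 pairs). The large minus small difference was 0.05 in pair 1, 0.09 in pair 2 and -0.09 in pair 3, a mean of 0.017 ± 0.091. Pair 3 thus had the opposite order, and no test was run on this score of chosen genes. Without Rpl3 the difference was 0.0067, and without pair 2 it was -0.018.

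Pair 2 stood apart from the other pairs. Its median member was at -0.14, against 0.012 in pair 1 and 0.07 in pair 3. In pair 2, 59 of the 67 genes lay below 0 (88.1%), where 50.7% of all genes did; in pair 1 it was 32 (background 45.9%) and in pair 3 25 (background 53.7%). The arrays of pair 2 had member medians of -0.14 (array 2) and -0.13 (array 4), so both dye orientations gave the same low value, while the medians of all genes on them were 0.0038 and -0.014. A value below 0 on both arrays was found for 34 members (50.7%, background 24.1%), and above 0 on both for 2 (background 20.8%), Rpl3 and Rplp2. This count was chosen after the values had been seen and carries no test.

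Both subunits were low in pair 2. Of the small subunit, 22 of 23 genes lay below 0 there, with a median of -0.18, and Rps12 was the exception at 0.023. Of the large subunit, 37 of 44 lay below 0, with a median of -0.10. The lowest members of the pair were Rps19 at -0.43, Rpl22 at -0.39, Rps29 at -0.38, named here after its value had been seen, and Rps27 at -0.36. The highest were Rpl3 at 0.53 and Rpl7l1 at 0.22. If the arrays had to be turned, pair 2 would have 35 of 67 genes below 0 with a median of -0.0099, so the low value rests on the reading as already turned.

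Other lists were read in the same pairs. Of 11 leukocyte markers 4 were measured, and all 4 lay above 0 in pair 2, where their mean was 0.46, against 0.16 in pair 1 and -0.16 in pair 3. The 2 arrays of pair 2 were uneven, with means of 0.75 on array 2, where 1 gene was at 2.29, and 0.17 on array 4. On each of them 3 of the 4 genes lay above 0. In the turned reading 1 of the 4 lay above 0 in pair 2, with a mean of -0.29. Of 11 erythroid markers 3 were measured, with pair means of -0.10, 0.18 and -0.55 (turned, 0.10, 0.18 and -0.55). The mean of pair 3 rests on 1 gene at -1.66, and the median there was -0.0049. In pair 2 the erythroid mean was -0.0012 on array 2 and 0.36 on array 4, where 1 gene was at 1.19. The mean of the 3 cardiomyocyte markers was -0.12, 0.014 and 0.07 (turned, 0.12, -0.0084 and 0.07). The part of these cells in the ribosomal values of pair 2 was not tested. Of 47 mitochondrial ribosomal proteins 24, 34 and 34 were below 0 in pairs 1, 2 and 3. Of 48 translation factors the counts were 26, 30 and 22, and of 62 ribosome biogenesis genes 32, 37 and 47. The shares of all genes below 0 are those given above for each pair.

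**Figure D3:**
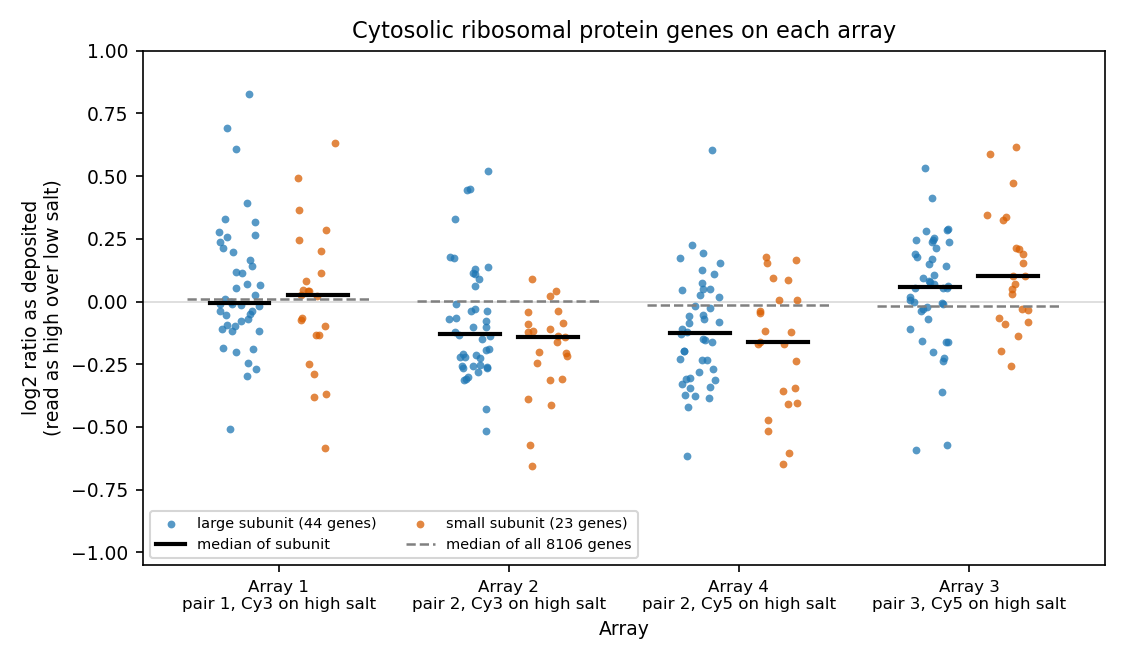
Log2 ratio as deposited (read as high over low salt) of each member on each array, large subunit in blue and small subunit in orange; black bars are subunit medians and the dashed line is the median of all 8106 genes. The medians of arrays 2 and 4, which hold the same 2 mice, lie below 0 while those of arrays 1 and 3 lie near or above 0.

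Fitting dye orientation gave calls among the members where the salt contrast gave none. The orientation coefficient, from a limma fit with orientation as a covariate and 1 residual degree of freedom, equals pair 1 minus pair 3, divided by 2. Pair 2, averaged over both dyes, enters its error and not its value. Pairs 1 and 3 are different mice with 1 array each, so in this coefficient dye and mice cannot be told apart. Besides the difference between those mice it holds a dye effect of the gene if the deposited ratios had been turned, and the salt effect if they had not. For 2 members it passed the adjusted threshold of 0.05, a share of 2.99% against a background of 5.13% of all genes. Both were higher with Cy3 on high salt (background 4.52%), and 0 members were lower (background 0.617%). Rpl8, whose protein uL2 forms part of the peptidyl transferase centre, read 0.69, 0.44, -0.59 and -0.62 on arrays 1 to 4. The 2 arrays with Cy3 on high salt were high and the 2 with Cy5 low, with no overlap. Its coefficient was 0.64 (SE 0.081, adjusted p 0.0383). Rpl7l1 read 0.83, 0.52, -0.57 and -0.08, with a coefficient of 0.70 (SE 0.075, adjusted p 0.0323). With either array of pair 2 used alone, 0 members passed. The exchange of dyes within pair 2, array 2 minus array 4 divided by 2, gave 0.53 for Rpl8 and 0.30 for Rpl7l1, with no test.

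Of the next 5 members by size of the coefficient, 4 ran the opposite way. Rps24 had -0.46 (adjusted p 0.0521), Rps7 -0.43 (adjusted p 0.147), Rps4x -0.36 (adjusted p 0.145) and Rpl13 -0.34 (adjusted p 0.0783), none of which passed in limma. Rps28 had 0.36 (adjusted p 0.226). Within pair 2 the exchange of dyes gave -0.20 for Rps24, -0.38 for Rps7, -0.15 for Rps4x and 0.20 for Rps28, all of the same sign as the coefficient, and 0.05 for Rpl13, of the opposite sign. At an unadjusted p under 0.05, 4 members were higher with Cy3 on high salt (background 16.2%) and 9 were lower (background 8.34%). The signs of the dyes were fully opposite, 2 arrays against 2, in 18 members (26.9%, background 31.3%). Of these, 6 were higher with Cy3 on high salt (background 18.7%) and 12 were lower (background 12.7%). Among the 12 were Rps6, Rps3a1, Rps24, Rps7, Rps4x, Rpl5, Rpl7 and Rpl17.

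The effect of exchanging dyes could be read from 2 sets of arrays. Array 1 minus array 3, divided by 2, compares different mice, and array 2 minus array 4, divided by 2, compares the same mice. The measures had the same sign in 47 of 67 members, and their Pearson's r across the members was 0.65, against 0.64 across all 8106 genes. Genes are not independent, and the arrays share the printed clones and the dyes, so the correlation is a description.

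**Figure D4:**
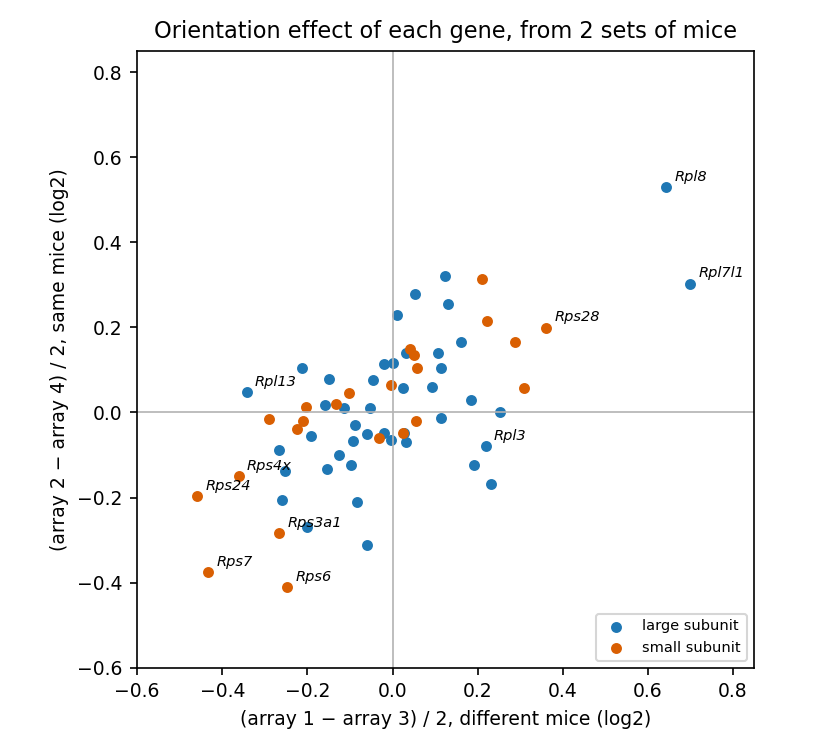
Orientation effect of each member from different mice (x axis, array 1 minus array 3, divided by 2, log2) and from the same mice (y axis, array 2 minus array 4, divided by 2, log2), by subunit. Rpl8 and Rpl7l1 lie at the upper right and Rps24 and Rps7 at the lower left; r across the 67 genes is 0.65.

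Clones of a gene gave similar but not equal values. Among the 44 members with 2 or more clones (156 clones), the median SD of the clone means was 0.064 on the log2 scale, against 0.078 over all 2851 genes with 2 or more clones. The pooled SD between single clones of a member was 0.089. The SD between the means of these members, Rpl3 included, was 0.10. Over all such genes the values were 0.15 and 0.16. A gene mean averages over clones and varies less than a single clone does, so the 2 SDs are not like measures. All clones of a gene lay on 1 side of 0 in 21 of 44 members (47.7%, against 52.0% of all such genes). With 3 or more clones it was 14 of 31 (45.2%, against 34.4%). For the orientation effect, all clones of a gene had 1 sign in 17 of those 31 (54.8%, against 30.7%).

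Among the genes with 4 or more clones, Rpl3 had 10 of 10 clone means above 0, Rpl41 5 of 5 and Rpl31 4 of 4. Rpl10 had 7 of 7 below 0, while Rps6, Rps3a1 and Rpl15 each had 4 of 4 below 0. Rpl7 had 5 of 9 above 0, and Rpl4, which lines the peptide tunnel, had 2 of 8 above 0 (mean -0.05 ± 0.13). Rpl5, which binds 5S rRNA, had 6 clones whose orientation effects ran from -0.88 to -0.0064. The 2 members called for orientation also had the widest spread between clones: the clone means of Rpl7l1 were 0.30, -0.16 and 0.34, and those of Rpl8 were 0.19 and -0.18.

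**Figure D5:**
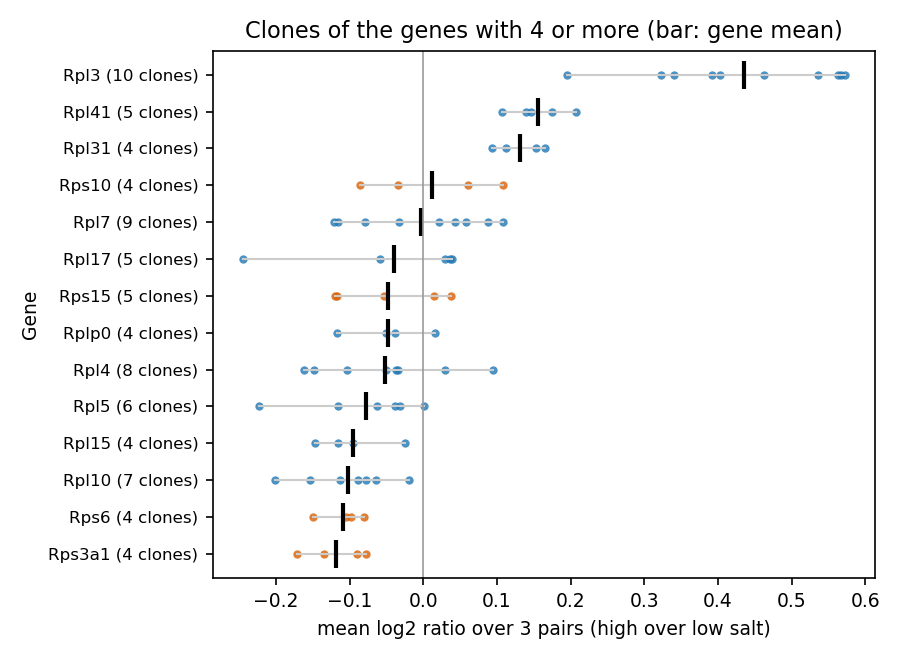
Mean log2 ratio over 3 pairs (high over low salt) of each clone, for the members with 4 or more clones; points are clones, black ticks the gene means. All 10 Rpl3 clones lie above 0 and all 7 Rpl10 clones lie below 0, while the 9 Rpl7 clones lie on both sides.

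The rest of the translation machinery also held no gene past the adjusted threshold in the salt contrast, where 0% of all genes passed. Ribosomal proteins with other names were close to 0: Fau, made as a fusion that releases a small subunit protein, had -0.02 ± 0.17 from 4 clones, and Rpsa had -0.01 ± 0.22 from 7. Of 57 translation factors 48 were measured, with 17 above 0 (background 49.8%) and 31 below (background 50.1%) and a median of -0.03. In the turned reading 28 were above 0 and 20 below, with a median of 0.03, so the balance reversed. At an unadjusted p under 0.05, 0 were higher (background 2.81%) and 1 lower (background 2.63%). Eef1a1, which brings aminoacyl-tRNA to the ribosome, was above 0 on all 4 arrays (0.44, 0.04, 0.07 and 0.40), with a mean of 0.25 ± 0.19 from 10 clones (adjusted p 0.931). Eif4a2, an RNA helicase of initiation, had -0.33 ± 0.31. The turned means were -0.06 for Eef1a1 and 0.27 for Eif4a2.

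Of 79 ribosome biogenesis genes 62 were measured, with 21 above 0 and 41 below and a median of -0.05 (turned, 22 and 40). Polr1b and Polr1a, the large subunits of RNA polymerase I, lay on opposite sides, at 0.42 ± 0.62 and -0.36 ± 0.25, and both below 0 in the turned reading, at -0.43 and -0.25. Of 21 genes of TOR, S6 kinase and Myc signalling 15 were measured. Myc, an activator of ribosomal genes, was below 0 on all 4 arrays with a mean of -0.42 ± 0.28 (adjusted p 0.863, unadjusted 0.0364) and a turned mean of 0.09. The 47 mitochondrial ribosomal proteins, encoded in the nucleus for the separate ribosome of that organelle, had a median of -0.05 with 15 above 0 and 32 below (turned, 13 and 34). Of these, 11 were below 0 on all 4 arrays, against 1 of the 67 cytosolic genes and 7.75% of all genes. Mrps35 was among them, at -0.29 ± 0.13 (turned mean 0.0089). At an unadjusted p under 0.05, 0 mitochondrial ribosomal genes were higher and 1 was lower. The difference between the ribosomes was not tested, since the lists were chosen with earlier results known.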

How the data were processed

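The authors deposited 1 log ratio per printed feature and array, used here as a log2 ratio. How the ratios were normalized and background-corrected, their base and their direction were not given in the sources used here. Another base would scale every value by 1 factor and leave signs and p-values. Of 17664 features, 17207 had values, 12563 had 1 symbol in the platform annotation, 412 had several and 4689 had none. Features with several symbols were not used, 12 of which included a member's symbol. Clones were averaged per symbol.

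Per-pair values of all 8106 genes were tested against 0 in limma 3.58.1 (R 4.3.3; lmFit, eBayes, Benjamini-Hochberg at 0.05, two-sided), with 2 residual degrees of freedom, and again with dye orientation as a covariate. Both fits were run on simulated data with known changes, and the only check was that the mean estimate matched the added change. The simulated arrays had independent noise and, in the salt runs, no dye effect. They therefore cannot show how often a change in these data would be called. Precision is limited by the small number of arrays. The pairs differed in dye orientation, so the spread over pairs can hold dye effects as well as differences between these mice. The p-values of the salt fit without the orientation covariate, and the SDs over pairs, cover these together. The members and lists were chosen with earlier results of these data known.

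Members named were the 5 highest and 5 lowest means per subunit, those with an unadjusted p under 0.05, the 6 largest orientation coefficients, all with 4 or more clones, the stalk proteins, the paralogue pairs and Rps6, and at most 2 highest and 2 lowest of each other list. Alternatives turned arrays, rescaled or recentred them, used the median clone, 1 array of pair 2 or members with 2 or more clones, and left out pairs, like-proteins or Rpl3. Start-site windows came from RefSeq.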

Additional observations from a re-analysis of the deposited data

Results flagged for a closer look

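Rpl7l1 and Rpl8 differed between pair 1, with Cy3 on high salt, and pair 3, with Cy5 on it, by limma's test of the orientation coefficient. These are different mice, so dye and mice cannot be told apart in it. The coefficient was 0.70 for Rpl7l1 (adjusted p 0.0323) and 0.64 for Rpl8 (adjusted p 0.0383), each higher with Cy3 on high salt in 2 of 2 arrays than in either array with Cy5. Exchanging dyes within pair 2 gave 0.30 for Rpl7l1 and 0.53 for Rpl8. In the turned reading the means over pairs were -0.57 for Rpl7l1 (adjusted p 0.118 in limma) and -0.61 for Rpl8 (adjusted p 0.081), and neither passed.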

How the results depend on the processing

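The count of members past the adjusted threshold in the salt contrast was 0 under every alternative run. The median member, the subunit means and the spread between clones moved by less than the SD over pairs or genes under each. Some changed sign within it: with the arrays turned the median member was 0.0052 and the large minus small difference -0.05. The 2 members with 1 sign on all 4 arrays were 1 above 0 (background 7.01%) and 1 below (background 7.75%). With the arrays turned they became 18 (26.9%, background 31.3%). The count was 6 with pair 2 taken from its Cy3 array, 9 from its Cy5 array, 1 among members with 2 or more clones and 1 without Rpl3. With a pair left out, which leaves fewer arrays, it ran from 10 to 26. No share over all genes was computed for these other settings, so their counts are not read as particular to the members. The 59 members below 0 in pair 2 became 35 with the arrays turned and 38 among the 44 members with 2 or more clones. The 2 members called for orientation became 0 with pair 2 from either of its arrays and 1 with the like-proteins left out, since Rpl7l1 is one of them. Of 36 named members, 18 changed sign with the arrays turned, 12 without pair 1, 4 without pair 2, 8 without pair 3, and 0 with rescaling or recentring. The fit without Rpl3 and the count in pair 2 were added after seeing the data. The test of per-pair ratios is itself paired by array. No paired analysis was possible by replicate number because the numbers only name arrays within a dye orientation, and a fit of the 4 arrays with pair as a random block gave no correlation. The cause of these changes was not tested.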
